A study of Mus musculus with 21 samples.

Results

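The genes described here were 40 genes of the cell division cycle, listed by symbol, of the 49652 genes counted in each tumor. They were read in 2 sets, 22 genes of mitosis and 18 genes of the G1/S transition and DNA replication (S phase genes). RNA sequencing covered 21 mouse mammary tumors. Of these, 9 were NeuNT controls, named N and a number, and 12 belonged to the RhoC cohort, named R and a number. Every mouse carried FloxNeoNeuNT, an activated Neu cDNA placed in the endogenous Erbb2 locus behind a removable stop, together with MMTV-CreNLST. Recombination was thus directed to the mammary gland, and the study regards this line as probably weaker there, in reach or in strength, than related Cre lines. RhoC mice also carried R26(RhoC/+), a Cre-conditional RhoC-IRES-eGFP cassette at Rosa26. Of the control tumors, 7 came from Gata4(loxP/+);FloxNeoNeuNT;MMTV-CreNLST mice, and N-15 and N-17 came from mice without the Gata4 allele. The 9 control tumors came from 9 mice. RhoC tumors were taken from 8 mice. Mouse P497 gave 4 of them (R-13 to R-16) and mouse N9255 gave 2 (R-6 and R-7). The label of R-18 names no mouse, and this tumor was counted as a mouse of its own. R-21 carries a mouse name that a table of the study gives to R-20. The labels used here give no ages.

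A dividing cell first commits to replication, when cyclin E and E2F factors switch on the genes that copy DNA. Replication origins are loaded with the MCM helicase ring, which Cdc45 and the GINS complex activate in S phase. Later, cyclin A and cyclin B with Cdk1 drive entry into mitosis, where spindle motors, checkpoint kinases and the anaphase-promoting complex separate the chromosomes. Many mitotic genes are read from promoters that hold a CHR element beside CCAAT boxes, bound by the MuvB complex and NF-Y, and many S phase genes from promoters with E2F sites.

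Promoter windows of 300 bases, from 250 before to 50 after the start (RefSeq, GRCm38.p6), were given for 32 members in 34 windows, since Mcm7 and Uhrf1 have 2 each. No window was given for Ccna2, Aurkb, Kif20a, Tpx2, Mcm4, Gins1, Gins2 and Ccne2. The letters TTTGAA (the CHR element) stood on either strand in 13 of the 18 mitotic windows (72.2%), in 2 of the 16 S phase windows (12.5%) and in 17.9% of all 32851 windows. CCAAT stood in 16 mitotic windows (88.9%), in 12 S phase windows (75.0%) and in 37.4% of all windows. All 13 mitotic windows with TTTGAA also held CCAAT, a combination found in 6.95% of all windows. An E2F match (TTTGGCGC, TTTCCCGC, TTTGCCGC or TTTCGCGC) was found in 5 S phase windows (31.2%), in 1 mitotic window (5.56%) and in 2.26% of all windows. These counts describe letters and not bound sites. The sequences below run from 120 bases before the start to 30 after it, with matches on either strand in capitals. Ccnb2, Cdk1, Cdc20 and Ube2c show CHR and CCAAT matches together. Cdk1 is also the mitotic gene with an E2F match, which lies outside the stretch printed. Mcm3 and Mcm6 are from the 5 S phase windows with an E2F match, a minority of the 16, and Birc5 is the mitotic member that followed its set least across the tumors. The printed stretch of Birc5 holds no match, and that of Nusap1, not shown here, holds none either. The window of Ccnb1, which followed its set closely (Pearson's r with the rest of the set 0.97), holds CCAAT but no TTTGAA. Whether these letters go with how a gene follows its set was not tested. In Mcm6, 2 E2F matches on opposite strands overlap in 1 run of capitals.
Ccnb2 (chr9:70421525-70421674, minus strand): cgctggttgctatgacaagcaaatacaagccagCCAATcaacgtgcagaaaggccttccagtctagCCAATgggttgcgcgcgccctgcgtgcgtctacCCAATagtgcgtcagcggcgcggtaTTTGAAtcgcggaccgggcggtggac
Cdk1 (chr10:69352883-69353032, minus strand): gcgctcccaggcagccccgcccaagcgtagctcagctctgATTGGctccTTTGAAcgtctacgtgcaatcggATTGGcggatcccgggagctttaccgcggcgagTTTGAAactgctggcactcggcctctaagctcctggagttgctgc
Cdc20 (chr4:118437314-118437463, minus strand): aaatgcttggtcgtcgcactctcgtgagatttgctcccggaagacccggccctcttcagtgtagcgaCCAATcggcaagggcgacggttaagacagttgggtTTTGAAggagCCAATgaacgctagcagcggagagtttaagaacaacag
Ube2c (chr2:164769809-164769958, plus strand): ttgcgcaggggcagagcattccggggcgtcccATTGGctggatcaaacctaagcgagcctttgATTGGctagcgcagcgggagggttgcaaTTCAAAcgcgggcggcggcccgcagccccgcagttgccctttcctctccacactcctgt
Birc5 (chr11:117849117-117849266, plus strand): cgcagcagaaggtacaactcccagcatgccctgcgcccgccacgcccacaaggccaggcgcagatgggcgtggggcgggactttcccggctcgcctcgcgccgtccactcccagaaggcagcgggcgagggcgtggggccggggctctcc
Mcm3 (chr1:20820283-20820432, minus strand): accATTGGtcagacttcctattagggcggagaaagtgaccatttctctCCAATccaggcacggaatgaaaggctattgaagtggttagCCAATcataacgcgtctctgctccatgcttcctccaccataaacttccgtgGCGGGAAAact
Mcm6 (chr1:128359676-128359825, minus strand): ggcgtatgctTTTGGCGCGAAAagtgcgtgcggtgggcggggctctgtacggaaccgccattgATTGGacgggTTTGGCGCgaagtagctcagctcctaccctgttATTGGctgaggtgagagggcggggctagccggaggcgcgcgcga

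Total counts per tumor ranged from 47552423 to 100741339 in control tumors and from 47309780 to 85326903 in RhoC tumors, so every member was read well above 0. The lowest raw count of any mitotic member in any tumor was 120 (Ube2c), and that of any S phase member was 91 (Gins1). All 40 members passed the filter on low counts, as did 19315 genes in all. Luminal epithelial markers (Krt8, Krt18, Krt19, Epcam and Cdh1) summed to 1437 to 5675 CPM (counts scaled to a common library size) in control and 1086 to 3421 CPM in RhoC tumors, so epithelial RNA was present in every tumor. Erbb2, the locus of the Neu allele, ranged from 57.9 to 2725 CPM in control tumors, with N-15 the lowest, and from 256 to 1851 CPM in RhoC tumors. Because N-15 stood apart in this way, the comparisons below were also computed without it. CPM values here were scaled by the trimmed mean of M values (TMM). In bulk tumor RNA, a smaller share of dividing cells and less RNA per dividing cell cannot be told apart.

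The members varied together from tumor to tumor, and both cohorts held tumors at the high and at the low end. A mitotic level and an S phase level were computed for each tumor as the mean log2 CPM of the set, centred on all 21 tumors. In control tumors the lowest, median and highest mitotic levels were -1.22 (N-6), -0.16 (N-8) and 1.11 (N-3), a 5.01-fold range. In RhoC tumors they were -0.89 (R-15), 0.01 and 1.11 (R-10), a 3.999-fold range. N-3, N-15, N-7 and R-10 were high, N-4, N-6 and R-15 were low, and the range of the RhoC tumors lay almost wholly inside that of the control tumors. The cohort means of the mitotic level were -0.03 ± 0.83 (SD, n = 9) in control tumors and 0.02 ± 0.48 (SD, n = 12) in RhoC tumors. Without N-15 the control mean was -0.15 ± 0.80 (SD, n = 8).

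The S phase levels were ordered much alike. In control tumors the lowest, median and highest were -1.06 (N-6), -0.01 (N-9) and 1.07 (N-3), and in RhoC tumors -0.76 (R-15), -0.05 and 1.06 (R-10). Means were 0.01 ± 0.71 (SD, n = 9) in control tumors, -0.10 ± 0.67 (SD, n = 8) without N-15, and -0.01 ± 0.42 (SD, n = 12) in RhoC tumors. The differences between cohort means were smaller than the SD within either cohort. In R-10 all 22 mitotic and all 18 S phase genes were above their median over the tumors, and in N-6 none was, against 49.0% and 46.6% of all tested genes in these 2 tumors. R-10 was the highest RhoC tumor for 37 of the 40 members, against 14.8% of all tested genes, and R-15 the lowest for 33, against 4.42%. Among control tumors, N-6 was the lowest for 28 members and N-4 for 10, and N-3 was the highest for 24 and N-15 for 15. The difference of the mitotic level minus the S phase level was small in each tumor, from -0.33 (R-1) to 0.35 (N-7).

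**Figure D1:**
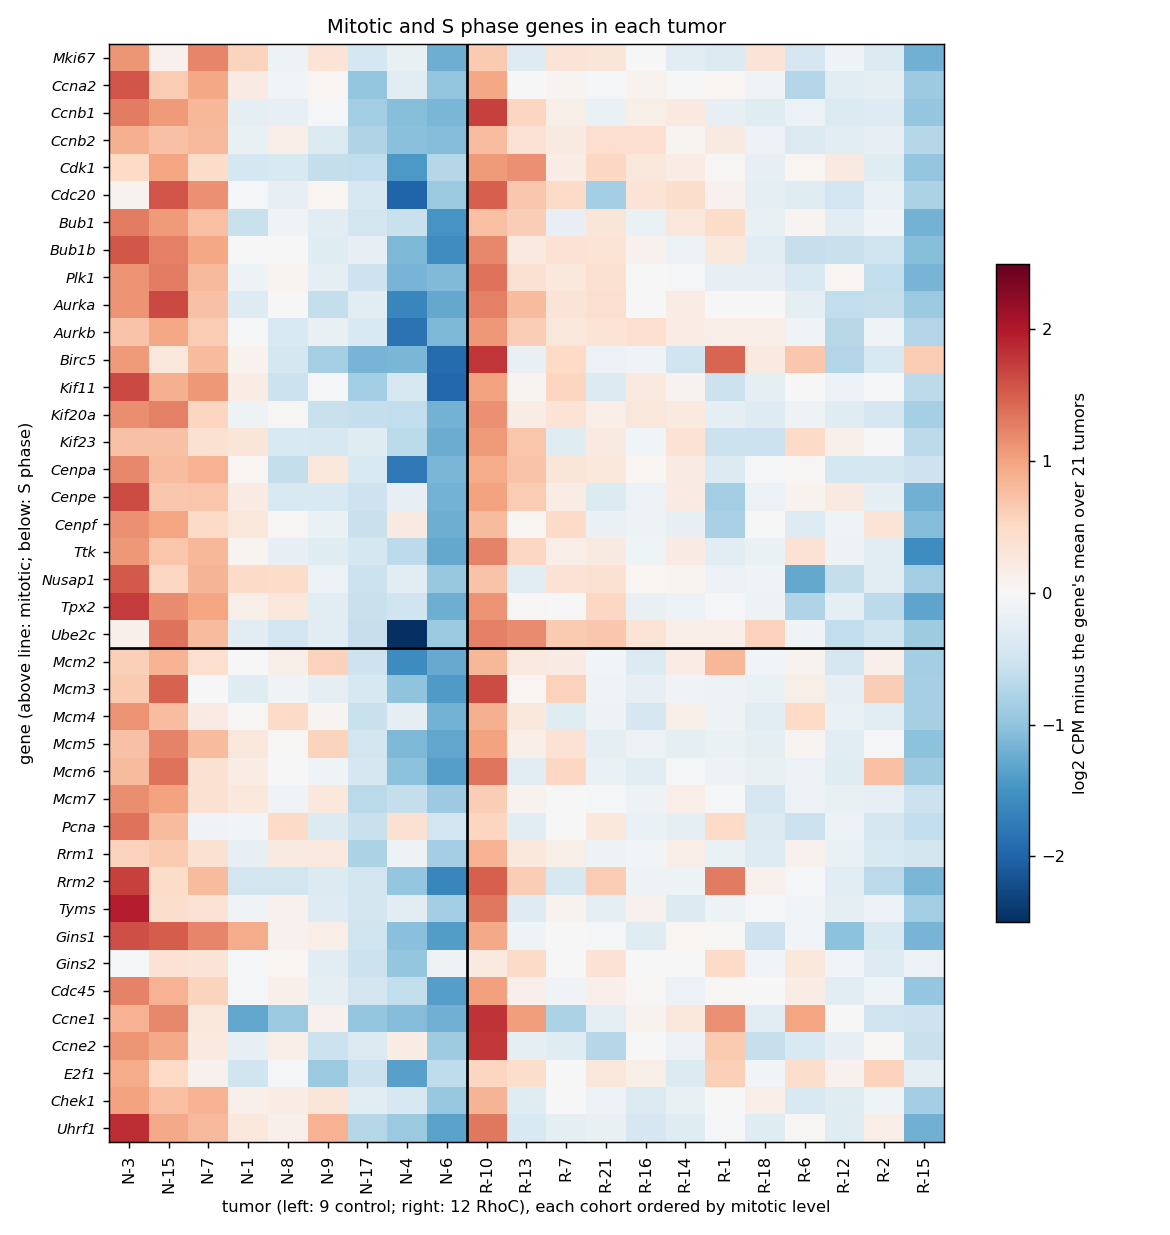
Log2 CPM of the 40 genes (rows) in the 21 tumors (columns), each minus the gene's mean over all tumors; red is higher and blue lower, the vertical line separates the 9 control from the 12 RhoC tumors and the horizontal line the mitotic from the S phase genes. N-3, N-15, N-7 and R-10 are red and N-6 and R-15 blue in most rows, while Birc5 leaves its set in R-1, R-6 and R-15.

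The 4 tumors of mouse P497 differed in level, also R-15 and R-16, which the labels place in the same gland. Within this mouse the mitotic levels were 0.39 (R-13), 0.08 (R-14), -0.89 (R-15) and 0.09 (R-16), so R-15 lay apart from the other 3 by more than the SD of the whole cohort. Its S phase levels were 0.10, -0.07, -0.76 and -0.14 in the same order. The 2 tumors of mouse N9255 were closer, with mitotic levels of -0.19 (R-6) and 0.26 (R-7) and S phase levels of 0.06 and -0.01. Among control tumors, the 7 with the Gata4 loxP allele averaged -0.09 ± 0.84 (SD) in the mitotic level, and the 2 without it lay at 0.94 (N-15) and -0.56 (N-17), on either side of that mean.

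Milk protein genes (Csn2, Csn1s1, Csn1s2a, Csn3 and Wap) tended to be low where the levels were high. They summed to 782 to 20077 CPM in control and 74.2 to 77258 CPM in RhoC tumors. Their summed CPM was 782 in N-3 and 74.2 in R-10, the lowest of each cohort, against 20077 in N-4 and 19488 in N-6. N-7, with high levels, held 4101 CPM, near the control median of 4315, and R-15, with low levels, held 4831 CPM, near the RhoC median of 4486. Spearman's rho over the 21 tumors was -0.48 with the mitotic level and -0.64 with the S phase level. Among the other 11 marker lists, rho with the mitotic level lay between -0.17 (B and plasma cells) and 0.28 (skeletal muscle), and rho of the muscle list with the S phase level was 0.50. Of the muscle list, 2 of 5 genes passed the filter on low counts. The sum over all 5 ranged from 0.588 to 3969 CPM in control and from 0.458 to 614 CPM in RhoC tumors, with 375 in N-3 and 614 in R-10. The highest sum was that of N-17, which had low levels, and N-15 and N-7, with high levels, held 1.09 and 26.8 CPM. Spearman's rho of the total count with the mitotic and S phase levels was -0.36 and -0.19, and that of the TMM factor 0.38 and 0.29. None of the genes tested in the 12 lists was called between cohorts by edgeR. Besides the muscle list, 2 of 5 squamous keratinocyte, 2 of 5 B and plasma cell and 1 of 5 adipocyte genes were tested, and the other lists in full. The part of these cells and of depth in the levels was not tested.

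**Figure D2:**
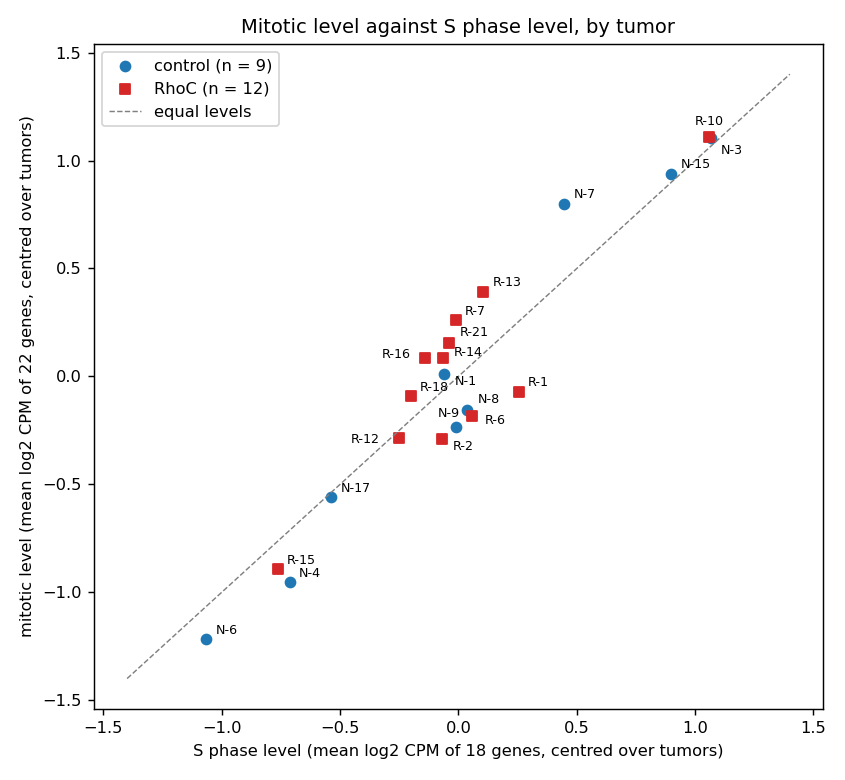
Each point is a tumor; the x axis is its S phase level and the y axis its mitotic level, both as mean log2 CPM centred over the 21 tumors, with control tumors as circles, RhoC tumors as squares and a dashed line of equal levels. The points lie along the line, with control and RhoC tumors mixed, and N-3 and R-10 fall almost on the same place at the top.

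Pearson's r of the mitotic with the S phase level was 0.95 over 21 tumors, 0.95 without N-15, 0.98 in control and 0.89 in RhoC tumors, given as a description since the members of both sets share libraries. Between single genes, the median r was 0.80 over the 231 mitotic pairs, 0.73 over the 153 S phase pairs and 0.75 over the 396 pairs of a mitotic with an S phase gene. Mki67, the proliferation marker Ki-67, and Mcm2, a subunit of the MCM ring, served as the single pair with a test. Their r on log2 CPM was 0.57 (permutation p = 0.00677) and Spearman's rho 0.51 (permutation p = 0.0203) over 21 tumors, and the adjusted p over the 8 versions computed were 0.0143 and 0.0423. Without N-15, r was 0.59 (permutation p = 0.00643) and rho 0.52 (permutation p = 0.0211). Within cohorts r was 0.68 (permutation p = 0.0435) in control tumors and 0.48 (permutation p = 0.113) in RhoC tumors. The rank correlation was 0.65 (permutation p = 0.0659) and 0.22 (permutation p = 0.487), so the relation passed by r alone in control tumors and by neither measure in RhoC tumors. Without N-7 and N-3, the 2 tumors farthest in Mki67, r was 0.55 (permutation p = 0.0152) and rho 0.42 (permutation p = 0.0722). Over 17 mice, with counts summed per mouse, r was 0.57 (permutation p = 0.0177, adjusted p = 0.0236) and rho 0.52 (permutation p = 0.0351, adjusted p = 0.0561).

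Between the cohorts no member was called. The edgeR quasi-likelihood test with Benjamini-Hochberg adjustment called 0 of 22 mitotic and 0 of 18 S phase genes at an adjusted p under 0.05, against 0.223% of all tested genes (43 of 19315, 18 higher and 25 lower in RhoC). At an unadjusted p under 0.05 the counts were 0 mitotic genes and 1 S phase gene (Gins1, lower in RhoC), against 20.5% of all tested genes, 10.5% higher and 9.93% lower in RhoC. These small counts moved with single tumors, to 2 mitotic and 3 S phase genes without R-10 and to 1 and 3 without N-6. In the same fits 4343 of 19189 tested genes lay under this p without R-10, and 3876 of 19509 without N-6. DESeq2 also called 0 members, against 6.24% over the whole table. RhoC minus control, the median of the log2 fold changes was -0.11 over the mitotic genes (6 positive, 16 negative) and -0.11 over the S phase genes (6 positive, 12 negative), beside -0.01 over all tested genes. The difference of the mean levels over the same tumors was 0.05 (mitotic) and -0.01 (S phase), so the 2 measures differed in sign for the mitotic genes and were both negative for the S phase genes. The medians also moved with single tumors. Without R-10 the medians were -0.27 and -0.30, without N-6 -0.23 and -0.22, and without N-3 0.07 and 0.05. Without N-15 they became 0.06 (14 of 22 positive) and -0.00 (9 of 18 positive), 11 of the 40 members changed sign, and again 0 were called, against 1.77% of all tested genes (346 of 19579), with 1 member, Cdk1, at an unadjusted p under 0.05 (higher in RhoC), against 23.2% in either direction and 12.1% higher.

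The precision of the comparison was limited by the spread among tumors. The 95% interval of the log2 fold change held 0 for 39 of 40 members and lay within -1 to 1, or a 2-fold change, for 32 of them. A 2-fold difference in either direction was therefore outside the interval for most members. The upper bound was lowest for Gins1 (-0.03), Pcna (0.09), Chek1 (0.10), Nusap1 (0.10) and Uhrf1 (0.14). No member separated the cohorts, with all 21 tumors or without N-15, against 0.0155% and 0.0932% of tested genes. The p-values treat tumors of 1 mouse as independent. The labels name the gland of the tumors that share a mouse, and by them R-15 and R-16 of mouse P497 came from the same gland. Beyond this the labels do not say how tumors were sampled.

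**Figure D3:**
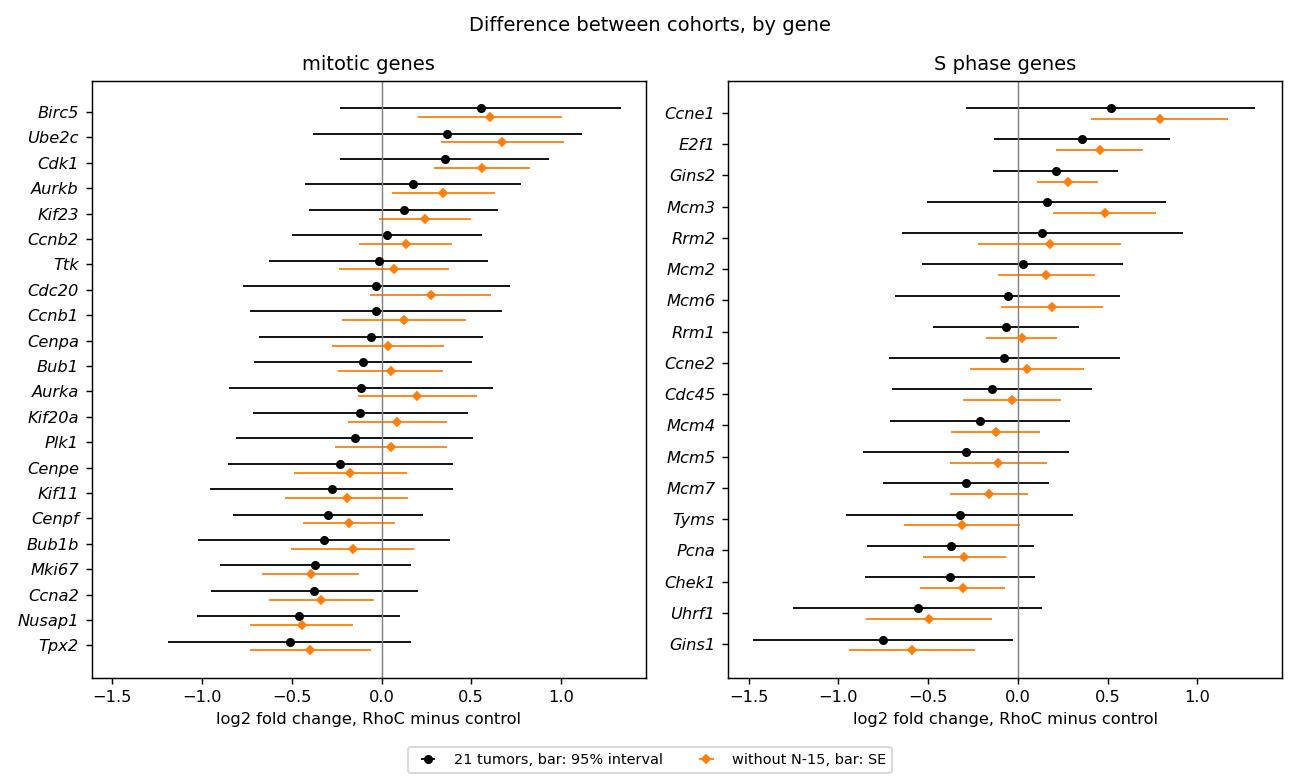
Log2 fold change, RhoC minus control, of each mitotic (left) and S phase gene (right); black points with 95% intervals are the edgeR estimates over 21 tumors, and orange diamonds with standard errors those without N-15. Only the interval of Gins1 misses 0, and most orange diamonds lie to the right of the black points.

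Among the mitotic genes, Mki67, the cyclins and Cdk1 varied severalfold among the tumors of each cohort. Mki67 had lowest, median and highest values of 86.1, 217 and 472 CPM in control and 87.8, 177 and 318 CPM in RhoC tumors. N-7 and N-3 were the highest and N-6 and R-15 the lowest, N-15 was in the middle with 217 CPM, and the cohorts overlapped. Its log2 fold change was -0.37 ± 0.26 (SE, edgeR adjusted p = 0.418), and an exact 2-sided permutation test of mean log2 CPM gave a difference of -0.27 with p = 0.338, or -0.28 with p = 0.356 without N-15. Cdk1, the kinase that starts mitosis, spanned 17.4, 34.7 and 93.2 CPM in control and 23.6, 53.1 and 104 CPM in RhoC tumors. Here N-15 was the highest control, and 11 of 12 RhoC tumors lay above the control median. The estimate was 0.35 ± 0.28 (SE, edgeR adjusted p = 0.487), and 0.56 without N-15 (adjusted p = 0.211). Ccna2, the cyclin of S and G2 phase, had a log2 fold change of -0.38 ± 0.28 (SE). The B cyclins Ccnb1 and Ccnb2, partners of Cdk1, were near 0 at -0.03 ± 0.34 and 0.03 ± 0.25 (SE).

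Kinases of the spindle and the checkpoint followed the mitotic level closely. Plk1, a kinase of centrosomes, spindle and cytokinesis, had lowest, median and highest values of 13, 26.6 and 70.6 CPM in control and 12.9, 28.6 and 74.2 CPM in RhoC tumors. R-10, N-15 and N-3 were the highest and N-4 and R-15 the lowest, in overlapping cohorts. The log2 fold change of Plk1 was -0.15 ± 0.32 (SE, edgeR adjusted p = 0.813) and 0.05 without N-15. Aurka, a centrosome kinase, and Aurkb, the kinase of the chromosomal passenger complex, had log2 fold changes of -0.12 ± 0.35 and 0.17 ± 0.29 (SE). Bub1, Bub1b and Ttk, of the spindle checkpoint, lay at -0.10 ± 0.29, -0.32 ± 0.34 and -0.02 ± 0.29 (SE). The r of Plk1 with the rest of its set was 0.97, equal to that of Ccnb1 and the highest among mitotic genes.

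The motor Kif11 had the widest range of control values after Ube2c. Kif11, the motor that pushes spindle poles apart, had lowest, median and highest values of 9.73, 37.1 and 119 CPM in control and 24.1, 37.4 and 76.8 CPM in RhoC tumors. The control range, from N-6 to N-3, enclosed all RhoC tumors. For Kif11 the log2 fold change was -0.28 ± 0.33 (SE). Kif20a and Kif23, motors of the central spindle in cytokinesis, lay at -0.12 ± 0.29 and 0.12 ± 0.25 (SE). Cenpa, the centromere histone, Cenpe, a kinetochore motor, and Cenpf, a kinetochore protein, lay at -0.06 ± 0.30, -0.23 ± 0.30 and -0.30 ± 0.25 (SE). Nusap1 and Tpx2, which organise spindle microtubules, had the most negative mitotic estimates at -0.46 ± 0.27 and -0.51 ± 0.33 (SE, edgeR adjusted p = 0.338 and 0.377).

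Ube2c, the ubiquitin-conjugating enzyme of the anaphase-promoting complex, ranged over 2.52, 13.2 and 41 CPM (lowest, median and highest) in control and 8.68, 19.2 and 38.2 CPM in RhoC tumors. N-4, with 2.52 CPM, lay below every other tumor, and N-15 was the highest. RhoC minus control, the log2 fold change was 0.37 ± 0.36 (SE, edgeR adjusted p = 0.579), and 0.67 without N-15 (adjusted p = 0.239). Cdc20, which activates that complex, had a log2 fold change of -0.03 ± 0.36 (SE), and 0.27 without N-15. An exon of Ube2c overlaps Tnnc2, a muscle troponin gene, on the opposite strand. In all, exons of 10 members overlap a gene on the opposite strand (Ube2c, Ccna2, Kif20a, Cdc20, Nusap1, Plk1, Mcm7, Cdc45, Ccne2 and Gins2), and whether counting used the strand is not given in the sources used here.

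The S phase genes began with the switch into replication. Ccne1, cyclin E1, had lowest, median and highest values of 3.48, 4.52 and 19.9 CPM in control and 4.97, 8.79 and 30.2 CPM in RhoC tumors. Each of the 12 RhoC tumors exceeded the control median, but the cohorts overlapped, since N-15 exceeded every RhoC tumor except R-10. The log2 fold change was 0.52 ± 0.39 (SE, 95% interval -0.29 to 1.32, edgeR adjusted p = 0.455), and 0.79 without N-15 (adjusted p = 0.216). E2f1, the transcription factor of the G1/S genes, spanned 4.7, 8.64 and 23 CPM in control and 9.54, 14.1 and 18.4 CPM in RhoC tumors, again with each RhoC tumor over the median of the controls and N-3 the highest of all. Such counts also ran the other way, with 1 of 12 RhoC tumors above the control median for Nusap1, Mcm7, Chek1, Uhrf1 and Gins1. Their share over all tested genes was not computed. The estimate for E2f1 was 0.36 ± 0.24 (SE, edgeR adjusted p = 0.396), and 0.46 without N-15 (adjusted p = 0.256). Ccne2, cyclin E2, lay at -0.07 ± 0.31 (SE). Whether the 2 E cyclins differed from each other was not tested.

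The MCM ring was read through all of its 6 subunits. Mcm2 had lowest, median and highest values of 16.6, 54.4 and 90.5 CPM in control and 27.3, 53.1 and 88.1 CPM in RhoC tumors. N-15, R-10 and R-1 were the highest and N-4 and N-6 the lowest, so the cohorts overlapped. Its log2 fold change was 0.03 ± 0.27 (SE, edgeR adjusted p = 0.964), and the exact 2-sided permutation test gave a difference of mean log2 CPM of 0.15 with p = 0.621, or 0.27 with p = 0.375 without N-15. Mcm3, Mcm4, Mcm5, Mcm6 and Mcm7 lay at 0.16 ± 0.32, -0.21 ± 0.24, -0.29 ± 0.28, -0.06 ± 0.30 and -0.29 ± 0.22 (SE). Mcm3 moved most of all 18 S phase genes without N-15, to 0.48 (adjusted p = 0.31), and N-15 held 158 CPM, the highest control value.

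Gins1 and Gins2, subunits of the GINS complex, had estimates of opposite sign, and whether they differed from each other was not tested. Gins1 had lowest, median and highest values of 1.51, 4.55 and 12.5 CPM in control and 1.78, 3.79 and 7.88 CPM in RhoC tumors. N-3, N-15 and N-7 exceeded every RhoC tumor, and 11 of 12 RhoC tumors lay below the control median. Its log2 fold change was -0.75 ± 0.35 (SE, 95% interval -1.48 to -0.03, unadjusted p = 0.042, edgeR adjusted p = 0.229), and -0.59 without N-15 (adjusted p = 0.313), so it was not called. Gins2 had the narrowest control range of the S phase genes, over 3.76, 7.1 and 9.44 CPM in control and 5.89, 7.39 and 10.3 CPM in RhoC tumors, with a log2 fold change of 0.21 ± 0.17 (SE), and its r with the rest of the S phase genes was 0.54, the lowest of the set. Cdc45, which joins GINS and the MCM ring, had the highest r, 0.97, and a log2 fold change of -0.14 ± 0.27 (SE).

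Nucleotide supply and the replication fork completed the set. Rrm2, the regulated subunit of ribonucleotide reductase, had lowest, median and highest values of 28.9, 64.9 and 294 CPM in control and 40.6, 85.1 and 254 CPM in RhoC tumors. N-3, R-10 and R-1 (219.6 CPM) were the highest, and the log2 fold change was 0.14 ± 0.38 (SE). Rrm1, its large subunit, lay at -0.07 ± 0.20, and Tyms, thymidylate synthase, at -0.32 ± 0.31 (SE), with N-3 far above the other control tumors. Pcna, the sliding clamp of the polymerases, lay at -0.38 ± 0.22 (SE, edgeR adjusted p = 0.343), and Pcna, Tyms, Ccnb1 and Ccnb2 have annotated pseudogenes. Per the study's methods, reads that mapped to several places or genes were left out, so reads shared with a pseudogene do not enter these counts. Chek1, the replication checkpoint kinase, lay at -0.38 ± 0.23, and Uhrf1, which carries DNA methylation through replication, at -0.56 ± 0.34 (SE, edgeR adjusted p = 0.347).

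Levels between genes were compared on the authors' FPKM, which are per length. By the mean over 21 tumors the highest were Pcna (63.3 ± 26.9 FPKM, SD, n = 21), Rrm2 (44.7 ± 29.6 FPKM), Rrm1 (37.2 ± 11.3 FPKM) and Uhrf1 (31.9 ± 20.6 FPKM), all S phase genes. Ccna2 (22.2 ± 11.5 FPKM), Mki67 (21.7 ± 9.54 FPKM) and Ccnb1 (20.4 ± 12.4 FPKM) led the mitotic genes and differed by less than their spread. The lowest were Gins1 (3.15 ± 2.05 FPKM), Chek1 (3.06 ± 1.19 FPKM) and Gins2 (1.88 ± 0.426 FPKM).

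The control tumors were spread more widely in these genes. The SD of log2 CPM was larger in control than in RhoC tumors for all 22 mitotic genes and for 17 of 18 S phase genes, the exception being Ccne2 with 0.66 against 0.67. Among all 19315 tested genes the SD was larger in control tumors for 56.6%. The median SD over the mitotic genes was 0.90 in control and 0.57 in RhoC tumors, and over the S phase genes 0.81 and 0.48, beside 0.67 and 0.63 over all tested genes. Without N-15 the counts were again 22 of 22 and 17 of 18, beside 53.8% of all tested genes. These genes move together, so their counts are no independent tests, and the single genes tested did not pass. The mean absolute deviation of log2 CPM from the cohort median was 0.58 in control and 0.37 in RhoC tumors for Mki67 (exact permutation p = 0.228, and 0.108 without N-15) and 0.65 and 0.34 for Mcm2 (exact permutation p = 0.137, and 0.154 without N-15). This test of the spread was chosen after seeing the data.

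**Figure D4:**
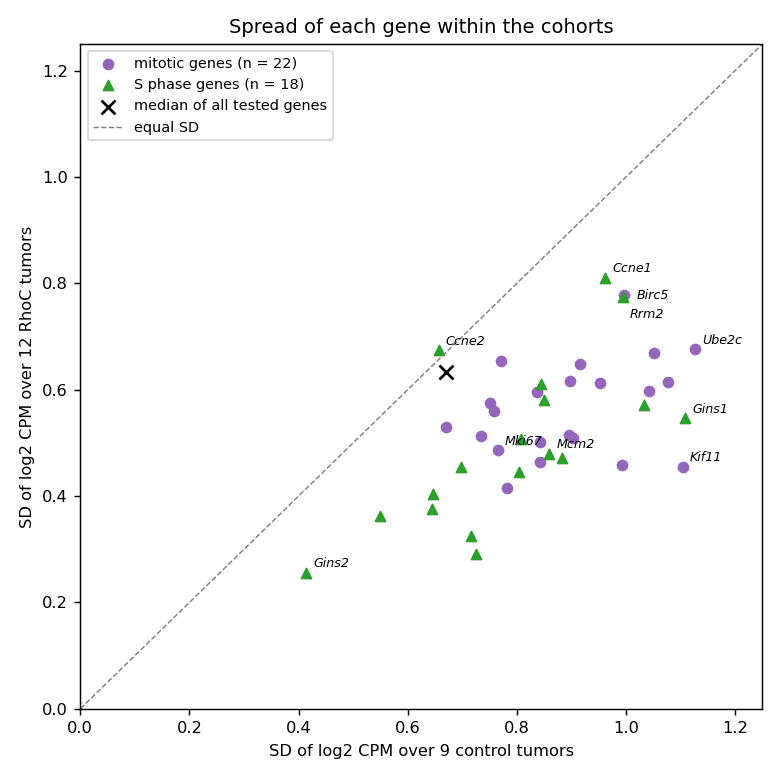
Each point is a gene; the x axis is the SD of its log2 CPM over the 9 control tumors and the y axis that over the 12 RhoC tumors, with mitotic genes as circles, S phase genes as triangles, the median of all tested genes as a cross and a dashed line of equal SD. All genes but Ccne2 lie below the line, and the cross lies close to it.

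Some members left their set in single tumors. Birc5, survivin of the chromosomal passenger complex, had lowest, median and highest values of 6.26, 17.4 and 50.2 CPM in control and 14.2, 25.2 and 82.7 CPM in RhoC tumors. R-10 (82.7 CPM) and R-1 (65.6 CPM) lay above every control tumor, while the other RhoC tumors overlapped them. Its log2 fold change was 0.55 ± 0.38 (SE, 95% interval -0.23 to 1.33, edgeR adjusted p = 0.411), the most positive of all members, and 0.60 without N-15 (adjusted p = 0.364). Its r with the rest of the mitotic genes was 0.65, the lowest of the set. Against the value fitted from the rest of the set in the same tumor, Birc5 stood 1.60 log2 units high in R-1 and 1.60 in R-15. In R-15 Birc5 was the 1 member above its mean over the tumors, by 0.64 log2 units. The only other difference from the rest of the set over 1.5 in size among the members was that of Ube2c in N-4, at -1.78.

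Genes beside Birc5 on chromosome 11 (Birc5 at 117849251 to 117855743, GRCm38, from the authors' table) were looked at after these values were seen. Of the 13 tested genes within 0.25 Mb, 10 were over 1 log2 unit above their mean in R-1 and 10 in R-15, against 9.27% and 7.88% of all tested genes in these tumors. The count was 5 in R-6, 5 in R-10, 4 in R-21 and 0 to 2 in each of the other 16 tumors. R-1 was the highest of all 21 tumors for Tk1, the thymidine kinase of S phase, with 218 CPM, for Syngr2 with 1253 CPM and for Tmc6 with 465 CPM. Within 1 Mb, 23 of 32 genes were over 1 log2 unit in R-15, 12 in R-10 (12.2% of all tested genes), 11 in R-6 (12.4%), 9 in R-21 (10.1%) and 0 to 7 in each of the others except R-1. Thus genes over 1 log2 unit around Birc5 were not limited to R-1 and R-15. In R-1 the count was 10 of 32, and genes further out, such as Septin9 at -1.18, lay below their mean. DNA was not measured in these files, and what sets these levels was not tested.

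**Figure D5:**
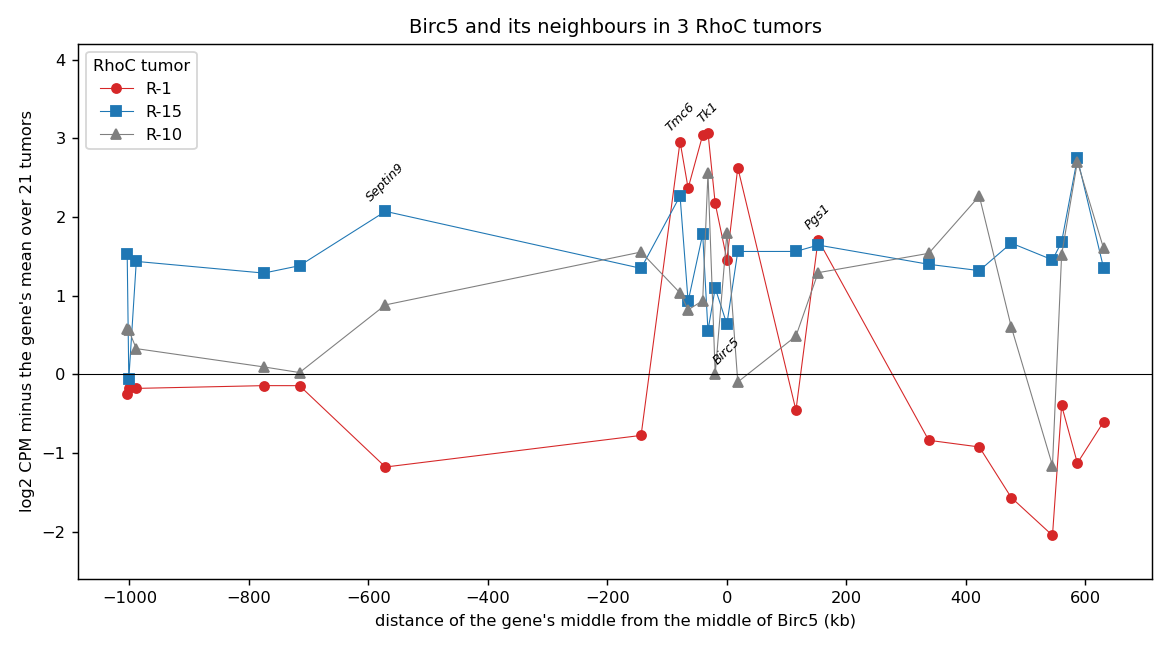
Deviation of log2 CPM from the gene's mean over 21 tumors (y axis) for tested genes with a mean log2 CPM over 0 within 1 Mb of Birc5, by the distance of their middles from that of Birc5 in kb (x axis), in R-1 (circles), R-15 (squares) and R-10 (triangles); lines only join the points of a tumor. R-1 is high in a narrow stretch around Birc5 and below 0 outside it, and R-15 is high over nearly the whole stretch.

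The rest of the pathway was compared between cohorts in the same fit, with 0 genes called by edgeR in each of 4 further lists, against 0.223% of all tested genes. DESeq2 called 6 of the 142 genes (4.23%, namely Pold3, Tk1, Tipin, Ccnd1, Cdkn1a and Cdkn2b), against 6.24% of all tested genes. Of 54 other mitotic genes 1 was higher (1.85%) and 4 were lower (7.41%) at an unadjusted p under 0.05, both below the 10.5% and 9.93% of all tested genes, with a median log2 fold change of -0.20 (-0.07 without N-15). Top2a, the topoisomerase that untangles chromosomes, lay at 0.80 ± 0.33 (SE, edgeR adjusted p = 0.187), with control values of 66.2, 132 and 359 CPM (lowest, median and highest) and RhoC values of 161, 268 and 872 CPM. Kif18b, a spindle motor, lay at 0.66, and Smc4, a condensin subunit, and Depdc1a at -0.48 and -0.59.

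Of 54 other replication genes 1 was higher (1.85%, against 10.5% of all tested genes) and 7 were lower (12.96%, against 9.93%) at an unadjusted p under 0.05, with a median of -0.19 (-0.09 without N-15). Tk1 lay at 1.65 ± 0.51 (SE, edgeR adjusted p = 0.102), with control values of 2.94, 18.03 and 42.1 CPM and RhoC values of 15.5, 36.1 and 218 CPM, the highest of them R-1. Pold3, a subunit of DNA polymerase delta, lay at -0.63 ± 0.16 (SE, edgeR adjusted p = 0.0714), and at -0.68 without N-15 (edgeR adjusted p = 0.0436). Without N-15 it was the 1 gene called of these 54, against 1.77% of all tested genes. Tipin, of the fork protection complex, lay at -0.75 ± 0.20 (SE, edgeR adjusted p = 0.0764), and Rpa1, which coats single-stranded DNA, at 0.28. With the Gata4 loxP controls only, Pold3 (-0.76, edgeR adjusted p = 0.0269) and Tipin (-0.87, edgeR adjusted p = 0.0318) were called, against 438 of 19699 tested genes. Fits with counts summed per mouse, with mouse as a random effect or without mouse P497 called neither.

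Among 16 G1 cyclins, kinases and inhibitors, 6 were higher (37.5%, against 10.5% of all tested genes) and 1 was lower (6.25%, against 9.93%) at an unadjusted p under 0.05, with a median of 0.32 (0.36 without N-15). The test behind these counts takes no account of tumors that share a mouse. When each mouse's counts were summed first, 3 were higher (18.8%, against 6.85% of all tested genes) and 1 lower (6.25%, against 5.89%). Without mouse P497 3 were higher (18.8%, against 6.98%) and 0 lower (against 4.63%). With mouse as a random effect (limma) 5 were higher (31.25%, against 7.03%) and 1 lower (6.25%, against 5.98%). Of the 142 genes of all 4 lists, 22 lay under this p with all tumors, 13 with counts summed per mouse and 11 without P497. Over all tested genes the counts were 3951 of 19315, 2462 of 19326 and 2228 of 19184, a larger share each time. The 2 positive genes with the smallest p were inhibitors of the cycle. Cdkn2b (p15) had control values of 3.83, 7.42 and 14.6 CPM and RhoC values of 4.88, 23.5 and 54.3 CPM, with a log2 fold change of 1.501 ± 0.41 (SE, edgeR adjusted p = 0.0798). Cdkn1a (p21) had control values of 35.5, 75.6 and 253 CPM and RhoC values of 85.4, 255 and 393 CPM, with a log2 fold change of 1.21 ± 0.35 (SE, edgeR adjusted p = 0.0897). Without N-15 both were called, at 1.64 (edgeR adjusted p = 0.0498) and 1.504 (edgeR adjusted p = 0.0366), against 0.884% of tested genes called higher. With N-15 kept, fits that took account of the mice called neither. Cdkn2b lay at 1.04 with counts summed per mouse (edgeR adjusted p = 0.321), at 1.09 with mouse as a random effect (limma adjusted p = 0.308) and at 0.86 without mouse P497 (edgeR adjusted p = 0.403). Cdkn1a lay at 1.13, 1.34 and 1.12 in the same fits (adjusted p = 0.259, 0.190 and 0.331). With the Gata4 loxP controls only, the edgeR adjusted p was 0.0608 for Cdkn2b and 0.0392 for Cdkn1a. Pearson's r of Cdkn2b and Cdkn1a with the mitotic level over 21 tumors was -0.10 and -0.07. Cdkn1c (p57), also an inhibitor, lay at -1.03 and Myc at -0.28. The cyclin Ccnd1 lay at 0.97 in the DESeq2 fit (DESeq2 adjusted p = 0.0274), so the higher genes of this list were not only inhibitors. Among 18 E2F, RB and MuvB regulators 1 was higher and 1 lower at an unadjusted p under 0.05 (5.56% each, against 10.5% and 9.93%) and the median was -0.00. E2f8, a repressing E2F, lay at 1.44 ± 0.59 (SE, edgeR adjusted p = 0.181). Its lowest, median and highest values were 5.46, 18.96 and 27.3 CPM in control and 9.11, 14.6 and 233 CPM in RhoC tumors. The RhoC median of E2f8 was thus below the control median, against the sign of the estimate. Rb1, the retinoblastoma protein, lay at -0.66 ± 0.24 (SE, edgeR adjusted p = 0.144), E2f4 at 0.38 and Lin54 at -0.34.

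Outside these lists, 11504 genes with a mean log2 CPM over 2 were ranked by their Pearson's r with the 2 levels over the 21 tumors, as a description. Nearest to the mitotic level were Arhgap11a (0.96), Ska3 (0.95), Fbxo5 (0.94), Haspin (0.94) and Ercc6l (0.94). Ska3 is a kinetochore protein, Fbxo5 an inhibitor of the anaphase-promoting complex and Haspin a mitotic histone kinase. Nearest to the S phase level were Ercc6l (0.96), Suv39h2 (0.93), Hus1 (0.92), Arhgap11a (0.92) and Actl6a (0.92). Ercc6l and Arhgap11a stood in both groups of 5, and all of these values stayed at 0.90 or above without N-15. Rhoc itself had lowest, median and highest values of 25.98, 50.7 and 172 CPM in control and 22.8, 88.2 and 148 CPM in RhoC tumors. Rhoc was not called between cohorts (log2 fold change 0.19 ± 0.34, SE, edgeR adjusted p = 0.774). It had r of -0.24 with the mitotic and -0.28 with the S phase level, and Erbb2 had r of -0.38 and -0.42.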

How the data were processed

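Bulk RNA was sequenced from 21 mammary tumors with a stranded total RNA kit after ribosomal RNA removal. Per the labels and the submitters' processing notes, reads were trimmed with Trim Galore 0.5.0, checked with FastQC 0.11.5, aligned with STAR 2.6.0c to GRCm38.p6 and counted per gene with HTSeq 0.6.1p2. The authors deposited raw counts per gene for each tumor and a table with FPKM values per tumor. Its columns of the authors' own comparison (log2 fold changes and p-values) were not used.

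Raw counts were scaled by TMM and tested with the quasi-likelihood test of edgeR 4.0.16 (R 4.3.3), with a filter on low counts by cohort and Benjamini-Hochberg adjustment over all 19315 tested genes, at an adjusted p under 0.05. Log2 CPM used a prior count of 2. No replicate was merged, and 0 columns of other samples were met. FPKM, which depend on gene length, served only to compare levels between genes. Single genes were compared by exact permutation over tumors, and correlations by permutation with 100000 resamples (Python 3.11.15, scipy 1.17.1). Exon overlaps were read from the GRCm38 annotation and promoters from RefSeq. On simulated counts for 19025 genes with 200 changed, the edgeR comparison of the cohorts recovered 75% of 4-fold and 18% of 2-fold changes. DESeq2 1.42.0, limma 3.58.1 (voom), library-size scaling, no filter, counts summed per mouse, a replicate block and leaving out each tumor were the alternatives.

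All 40 genes are named, with the 2 genes of smallest p in each direction of the other lists, the 5 genes nearest to each level, and Rhoc and Erbb2. The members and lists were chosen with earlier results of these data known. The neighbours of Birc5 and the test of the spread were chosen after seeing the data. Total counts between 47309780 and 100741339 set the counting precision, and replicates are separate tumors, some of 1 mouse.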

Additional observations from a re-analysis of the deposited data

Results flagged for a closer look

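Among the 40 genes and both levels in the 9 control tumors, 42 items in all, 1 had a tumor far from the others. Tyms, thymidylate synthase, was at a log2 CPM of 6.78 in N-3, and the nearest control tumor was at 5.26. The gap was 0.540 of the range, over the critical value of 0.493 for 9 samples. Chance flags about 1 in 20 groups.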

How the results depend on the processing

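Under each alternative run, 0 members were called. The count over all tested genes, 43, was 1206 with DESeq2, 27 with library-size scaling, 3 with counts summed per mouse, 3 with voom and mouse as a random effect, 438 with the Gata4 loxP controls only, 3 without mouse P497 and 26 without R-6, R-13 and R-14. It was 14 (without N-9) to 346 (without N-15) with 1 tumor left out. Leaving out N-1 (19), N-6 (65), N-7 (20), N-8 (22), R-6 (22), R-10 (94), R-12 (108), R-13 (22), R-14 (20), R-15 (26), R-16 (23), R-18 (80) or R-21 (27) also moved it by over 1.5 times. Genes called in the other cell cycle lists numbered 6 with DESeq2, 3 with the Gata4 loxP controls only, 0 to 3 with 1 tumor left out, and 0 with counts summed per mouse, with mouse as a random effect and without P497. Median log2 fold changes with 1 tumor left out ran from -0.27 to 0.07 (mitotic) and from -0.30 to 0.05 (S phase), lowest without R-10 and highest without N-3. Cdk1 and Ube2c, positive in all other settings, turned under the replicate block given last.

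The log2 fold changes of these members turned sign, with the cause not tested. With library-size scaling these were Ccnb2 (-0.022) and Mcm2 (-0.018), and with counts summed per mouse Mcm6 (0.051) and Ccne2 (0.067). With voom and mouse as a random effect together they were Ccnb1 (0.067), Cdc20 (0.11), Bub1 (0.087), Aurka (0.10), Kif20a (0.024), Cenpa (0.10), Ttk (0.045), Mcm6 (0.10) and Cdc45 (0.0066). With the Gata4 loxP controls only they were Ccnb1 (0.028), Cdc20 (0.23), Aurka (0.16), Kif20a (0.019), Ttk (0.0073) and Mcm6 (0.14). Without P497 they were Ccnb1 (0.018), Ttk (0.074), Mcm6 (0.13) and Ccne2 (0.075), while leaving out R-6, R-13 and R-14 turned Kif23 (-0.019), Mcm6 (0.026) and Ccne2 (0.032). With 1 tumor left out the ranges were Aurka -0.27 to 0.20, Bub1 -0.22 to 0.11, Ccnb1 -0.30 to 0.18, Ccnb2 -0.069 to 0.17, Ccne2 -0.38 to 0.089, Cdc20 -0.23 to 0.27, Cdc45 -0.27 to 0.062, Cenpa -0.19 to 0.14, Cenpe -0.36 to 0.075, Kif11 -0.42 to 0.014, Kif20a -0.26 to 0.088, Mcm2 -0.094 to 0.16, Mcm3 -0.070 to 0.48, Mcm6 -0.24 to 0.19, Plk1 -0.34 to 0.050, Rrm1 -0.18 to 0.022, Rrm2 -0.043 to 0.53, Ttk -0.18 to 0.16, Tyms -0.53 to 0.11. The permutation difference of Mcm2 ran from -0.037 to 0.27.

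Tumors with the same number in both cohorts (1, 6, 7 and 15) came from different mice by their labels. Their deviations from the cohort means correlated at -0.24, -0.18, -0.00 and 0.02. These correlations cannot show whether such tumors share anything besides a number. A replicate block, fitted on these 8 tumors alone, called 0 genes (1346 at an unadjusted p under 0.05), with medians of -0.41 (mitotic) and -0.22 (S phase), and turned Ccnb2 (-0.25), Cdk1 (-0.26), Aurkb (-0.22), Kif23 (-0.40), Ube2c (-0.25) and Gins2 (-0.014).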
